A study of Homo sapiens with 10 samples.

Results

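Glutamine and amino acid supply was followed through 9 genes, chosen by function and by name: the membrane transport genes SLC1A5, SLC7A5, SLC3A2 and SLC7A11, and the enzyme genes ASNS, GLUD1, GOT1, GOT2 and BCAT1. All 9 were found among the gene identifiers of the count files, and all 9 were among the 16756 genes that passed the filter on low counts. RS4;11 is an established cell line of B-cell precursor acute lymphoblastic leukemia. The BCL-2 inhibitor venetoclax (VEN) was raised stepwise in 5 parallel cultures of it, which gave the VEN-insensitive (VENins) lines, while 5 VEN-sensitive (VENsens) lines were kept with the solvent DMSO. The study's methods state that VENins lines stayed under VEN in culture and that VEN was washed away before analysis. VENsens lines were grown without VEN, so that insensitivity and drug exposure cannot be told apart here. All 10 lines came from 1 parental cell line and were grown in RPMI-1640 medium with 20% fetal bovine serum and 1% L-glutamine. RNA-Seq was done on 1 library per line, so that the spread given here is the spread between lines.

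Cells take up glutamine through sodium-dependent carriers and exchange it, or other amino acids, for leucine and related essential amino acids. Inside the cell, glutamine gives its nitrogen to asparagine and nucleotides, and glutamate derived from it enters the citric acid cycle as 2-oxoglutarate or is traded for cystine, the precursor of cysteine and glutathione. Lymphoblastic leukemia cells often make little asparagine, and drugs that remove asparagine from the blood are part of standard treatment. The comparison addressed here was whether RNA of these supply genes differed between VENins and VENsens lines.

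The gene counts were between 20631907 and 28323643 per library in VENsens lines and between 21145316 and 25394653 in VENins lines. The members were read at 659 or more counts in every library, the lowest being ASNS. VENins line 5 stood apart from the other lines before any member was considered: its counts differed from those of the 4 other VENins lines with a median chi-square per degree of freedom of 14.3, while this median was between 5.06 and 8.85 for VENins lines 1 to 4 and between 3.87 and 7.62 for the VENsens lines. Values without line 5 are given beside the member results that changed most without it.

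The cell type on the labels was compared with marker genes. Of 10 B-cell precursor markers, 9 were detected at more than 1 CPM (gene counts relative to the TMM-scaled library size), and their sum was between 3334 and 3790 CPM in all 10 libraries. PAX5 had the highest mean in VENsens lines (783 CPM, with 631 CPM in VENins lines) and IGLL1 in VENins lines (766 CPM, with 681 CPM in VENsens lines). CD34 reached at most 0.0969 CPM. The sum of 5 T cell markers stayed between 0.692 and 1.08 CPM, with CD3E the most abundant and CD8A at 0 in every library. The 5 myeloid markers summed to between 7.41 and 12.6 CPM, most of it from CSF1R. Erythroid markers summed to at most 0.242 CPM, with HBA1 and HBA2 at 0. Fibroblast markers summed to between 1.93 and 3.34 CPM, led by COL1A1, with DCN and LUM at 0. In bulk RNA, fewer cells of a type and less RNA per cell cannot be told apart.

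None of the members passed the test between VENins and VENsens lines. With edgeR's quasi-likelihood test and the line number in the model, 0 of 9 had an adjusted p under 0.05, a threshold passed by 33 of the 16756 tested genes (0.197%). DESeq2 also called 0 members, with and without the line number. At an unadjusted p under 0.05, 1 of 9 members was past the threshold, SLC7A11, against 16.2% of all tested genes. That number was between 0 (without line pair 2 or 4) and 3 (without line pair 5) when 1 pair was left out. The CPM ranges of the 5 VENins and 5 VENsens lines overlapped for every member, while those of 4.66% of tested genes did not. No member was lower in all 5 pairs of same-numbered lines or higher in all 5, as were 6.66% and 7.61% of tested genes. Lines of the same number did not deviate together from their group means, so that counts of pairs depend on the numbering. The median log2 fold change of the 9 members was -0.011 beside 0.0035 over all tested genes, with 4 members higher and 5 lower in VENins lines. With 1 line pair left out, the median of the members was between -0.057 (without line pair 5) and 0.047 (without line pair 1). The count of 33 genes rested on single line pairs and was between 6 (without line pair 2) and 331 (without line pair 4) when 1 pair was left out, whereas the count of members stayed at 0 each time.

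**Figure D1:**
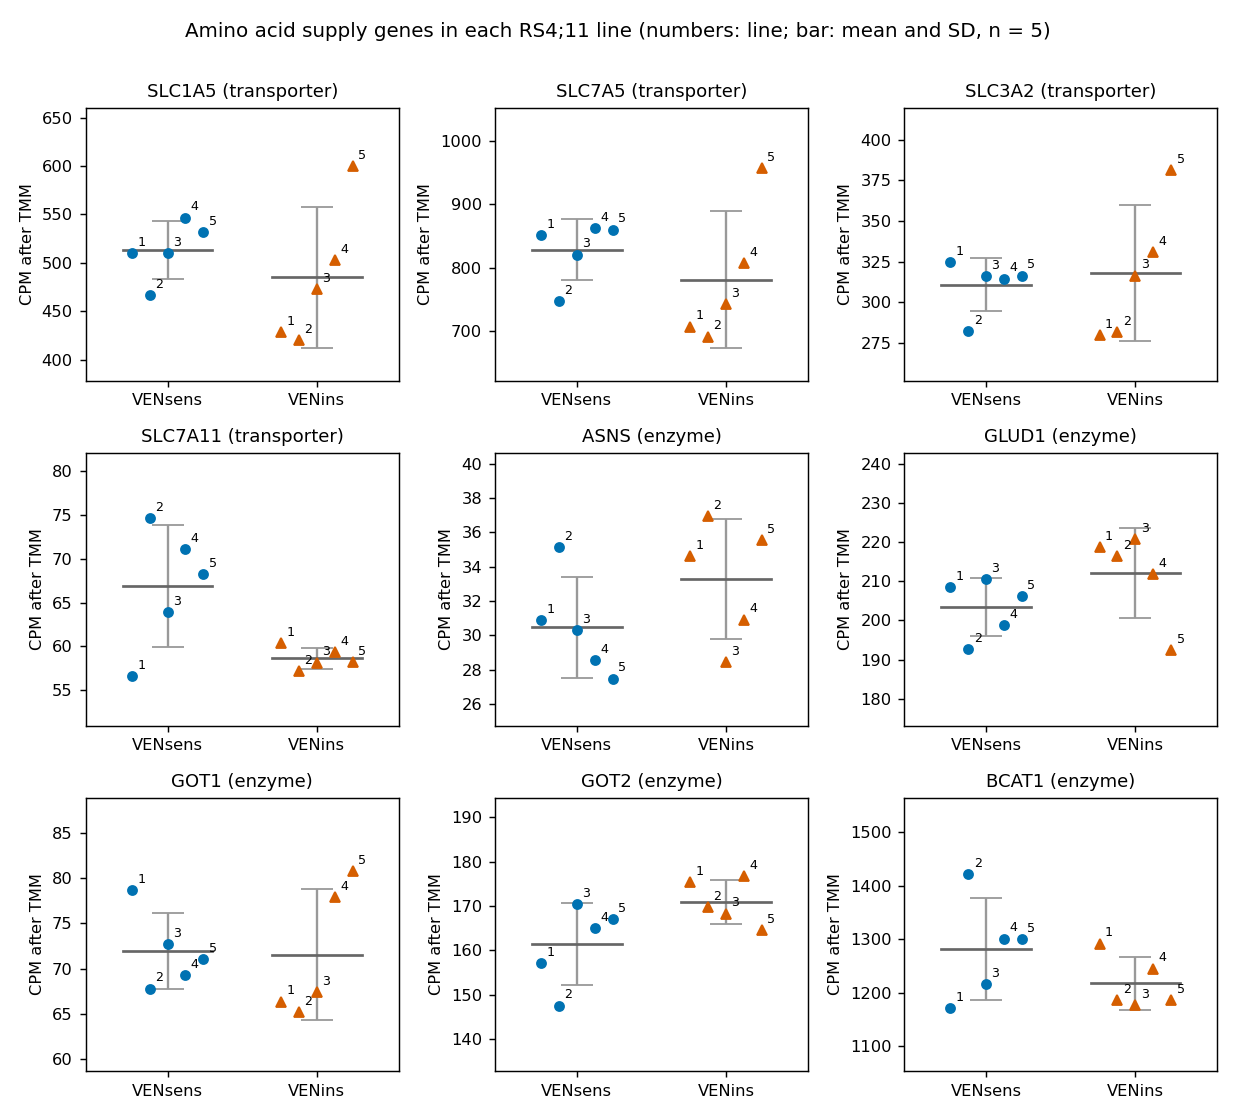
CPM after TMM scaling (vertical axes, which do not start at 0) of the 9 members in 5 VENsens lines (circles) and 5 VENins lines (triangles), each point labelled with its line number, and with bars for mean and SD over 5 lines. The groups overlap in all 9 panels, and VENins line 5 is the highest point for SLC1A5, SLC7A5, SLC3A2 and GOT1.

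SLC1A5 (ENSG00000105281) encodes ASCT2, a sodium-dependent exchanger that carries glutamine across the plasma membrane. Its level was 510.4, 467, 510.2, 547 and 532 CPM in VENsens lines 1 to 5. In VENins lines 1 to 5 it was 428, 421, 473, 503 and 600.1 CPM. VENins lines 1 and 2 lay below all VENsens lines and VENins line 5 above all of them, so that the groups overlapped across their whole span. The means were 513 ± 30.2 CPM and 485 ± 72.6 CPM (± SD of 5 lines). The log2 fold change was -0.091 (95% CI -0.22 to 0.035, edgeR adjusted p = 0.475), and the VENins line was the lower one in 4 of 5 pairs. Without line pair 5 the log2 fold change was -0.16 and without line pair 1 it was -0.051, with edgeR adjusted p-values of 0.164 and 0.715, while the adjusted p was between 0.164 and 0.813 over the 14 alternative settings tried.

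SLC7A5 (ENSG00000103257) encodes LAT1, the exchanger that brings leucine and other large neutral amino acids into the cell. It was measured at 852, 748, 820.5, 863 and 859.9 CPM in VENsens lines 1 to 5. The VENins lines had 707, 692, 743, 807 and 956 CPM. As for SLC1A5, VENins lines 1 and 2 were the lowest of the 10 libraries and VENins line 5 was the highest. The means of 829 ± 48.0 CPM in the VENsens group and 781 ± 108 CPM in the VENins group (± SD of 5 lines) gave a log2 fold change of -0.094 (95% CI -0.22 to 0.030, edgeR adjusted p = 0.450). Here too, 4 of 5 pairs were lower in the VENins line, and line pair 5 was the exception with a log2 ratio of 0.15. Without that pair the log2 fold change was -0.16 (edgeR adjusted p = 0.171), and without line pair 1 it was -0.050 (edgeR adjusted p = 0.705).

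SLC3A2 (ENSG00000168003) encodes CD98 heavy chain (4F2hc), the partner that LAT1 and the cystine carrier both need to reach the cell surface. The VENsens lines had 325, 282, 316, 315 and 316 CPM. The VENins lines had 279.9, 282, 316, 331 and 382 CPM. In VENsens lines, 4 values lay close together and line 2 below them, while VENins values were spread on both sides. The means were 311 ± 16.5 CPM and 318 ± 41.7 CPM (± SD of 5 lines), and the estimate was a log2 fold change of 0.026 (95% CI -0.11 to 0.16, edgeR adjusted p = 0.882). The direction rested on line 5, since the log2 fold change was -0.035 without that pair, while it was 0.086 without line pair 1 and 0.013 without line pair 4.

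SLC7A11 (ENSG00000151012) encodes xCT, the light chain that exports glutamate in exchange for cystine. It had 56.6, 74.7, 63.9, 71.1 and 68.3 CPM in VENsens lines 1 to 5. In VENins lines 1 to 5 it had 60.3, 57.1, 58.1, 59.3 and 58.2 CPM. The VENins values lay in a narrow band, below VENsens lines 2 to 5 but above VENsens line 1. The means were 66.9 ± 6.99 CPM in the VENsens group and 58.6 ± 1.23 CPM in the VENins group (± SD of 5 lines). The log2 fold change of -0.19 (95% CI -0.33 to -0.043) was the largest in size among the members and had the smallest p. It did not pass the adjustment over all genes, with an unadjusted p of 0.0143 and an adjusted p of 0.192 in edgeR, and its p had rank 1241 among the tested genes. Without line pair 1 the groups no longer overlapped, with 63.8 to 74.6 CPM in the VENsens group and 57.1 to 59.2 CPM in the VENins group, and the log2 fold change was -0.25 (edgeR adjusted p = 0.0967). With that pair left out, 9.57% of all tested genes did not overlap between 4 and 4 lines. Over the 14 alternatives the log2 fold change of SLC7A11 was between -0.25 and -0.14 and its adjusted p between 0.0776 and 0.640.

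**Figure D2:**
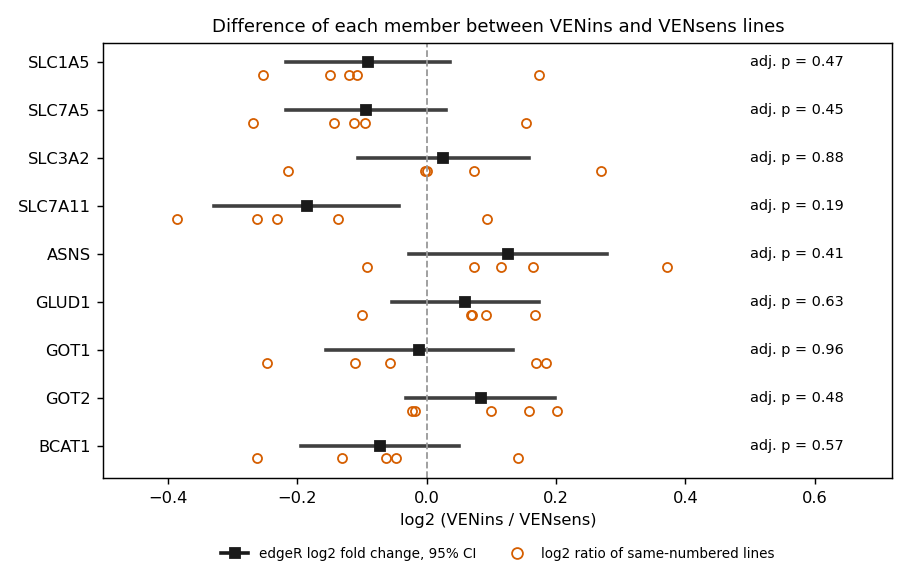
Log2 fold changes of VENins over VENsens lines from edgeR with 95% confidence intervals (squares and bars), and below each the log2 ratio of CPM in the 5 pairs of same-numbered lines (open circles), and with the edgeR adjusted p over all tested genes at the right. Every interval except that of SLC7A11 (-0.33 to -0.043) includes 0, and each member has pairs on both sides of 0.

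Among the enzymes, ASNS (ENSG00000070669), asparagine synthetase, transfers nitrogen from glutamine to aspartate. Its values were 30.9, 35.1, 30.3, 28.6 and 27.5 CPM in VENsens lines 1 to 5. The VENins lines had 34.6, 36.9, 28.4, 30.9 and 35.5 CPM. VENins line 2 was the highest library and VENsens line 5 the lowest, and VENsens line 2 lay among the upper VENins lines. The means were 30.5 ± 2.93 CPM and 33.3 ± 3.51 CPM (± SD of 5 lines). The log2 fold change of 0.13 (95% CI -0.027 to 0.28, edgeR adjusted p = 0.410) was the highest of the 9 members, and ASNS was higher in the VENins line in 4 of 5 pairs. Without line pair 5, which had its largest ratio, the log2 fold change was 0.064 (edgeR adjusted p = 0.682).

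GLUD1 (ENSG00000148672) encodes mitochondrial glutamate dehydrogenase, which turns glutamate into 2-oxoglutarate and ammonium. It was at 208, 193, 210.5, 199 and 206 CPM in VENsens lines. In VENins lines it was at 219, 216, 221, 212 and 192 CPM. VENins lines 1 to 4 were above every VENsens line and VENins line 5 was the lowest of all 10. The means were 203 ± 7.38 CPM and 212 ± 11.5 CPM (± SD of 5 lines), and the log2 fold change was 0.059 (95% CI -0.054 to 0.17, edgeR adjusted p = 0.626). Without line pair 5 the ranges were 193 to 211 CPM in the VENsens group and 212 to 221 CPM in the VENins group and did not overlap, as for 10.5% of all tested genes without that pair, with a log2 fold change of 0.099 (edgeR adjusted p = 0.346). Without line pair 2 it was 0.032. Counts of GLUD1 are less certain than those of the other members, because its intronless copy GLUD2 has a nearly identical sequence: GLUD2 carried 45.8% as many counts as GLUD1, at 97.3 CPM in the VENsens group and 93.4 CPM in the VENins group. With the counts of named copies added, the log2 fold change of GLUD1 was 0.022 (edgeR adjusted p = 0.876). In addition, exons of SHLD2, annotated on the opposite strand, share 464 bases with GLUD1, and the strand setting of the counting is not given in the sources used here.

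GOT1 and GOT2 encode the cytosolic and the mitochondrial aspartate aminotransferase, which interconvert glutamate and aspartate and form part of the malate-aspartate shuttle. GOT1 (ENSG00000120053) had 78.7, 67.8, 72.7, 69.3 and 71.1 CPM in VENsens lines and 66.3, 65.2, 67.4, 77.9 and 80.8 CPM in VENins lines. VENins lines 1 to 3 were the lowest and VENins line 5 the highest, and the means of 71.9 ± 4.23 CPM and 71.5 ± 7.27 CPM (± SD of 5 lines) were nearly equal. Its log2 fold change was -0.011 (95% CI -0.16 to 0.13, edgeR adjusted p = 0.959), and the sign turned without line pair 1 (0.047) and without line pair 3 (0.013), while the value was -0.061 without line pair 5. GOT2 (ENSG00000125166) had 157, 148, 170.5, 165 and 167 CPM in VENsens lines and 175, 169.7, 168, 177 and 165 CPM in VENins lines. VENsens lines 1 and 2 were the lowest libraries for GOT2, and the 3 other VENsens lines overlapped the VENins lines. With means of 161 ± 9.19 CPM and 171 ± 5.06 CPM (± SD of 5 lines), the log2 fold change was 0.083 (95% CI -0.033 to 0.20, edgeR adjusted p = 0.477), and 0.054 without line pair 2.

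BCAT1 (ENSG00000060982) encodes the cytosolic branched-chain aminotransferase, which moves the amino group of leucine, isoleucine or valine to 2-oxoglutarate and so makes glutamate. The values were 1171, 1422, 1216, 1301 and 1299.5 CPM in VENsens lines 1 to 5. The VENins lines had 1292, 1186, 1177, 1245 and 1187 CPM. VENsens line 2 was the highest and VENsens line 1 the lowest of the 10 libraries, so that the VENins lines lay inside the VENsens range. The means were 1282 ± 96.0 CPM and 1217 ± 49.6 CPM (± SD of 5 lines), and the estimate was a log2 fold change of -0.072 (95% CI -0.19 to 0.049, edgeR adjusted p = 0.565). Its size depended on single pairs, with -0.13 without line pair 1 and -0.025 without line pair 2, and it was -0.016 with trends on exon length and GC content taken out.

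Levels of different genes were compared as CPM per kilobase of annotated exon (GENCODE 29, union of exons), averaged over the 5 VENsens lines. On this scale SLC7A5 was the most abundant member with a level of 175 ± 10.1 CPM per kb, followed by SLC1A5 with 154 ± 9.06 CPM per kb (± SD of 5 lines), and the ranges of these neighbours overlapped. BCAT1 followed with a level of 109 ± 8.15 CPM per kb, separate from both sides. SLC3A2 (60.0 ± 3.18 CPM per kb) and GLUD1 (57.8 ± 2.10 CPM per kb) had overlapping levels. GOT2 at 42.9 ± 2.44 CPM per kb and GOT1 at 21.3 ± 1.26 CPM per kb were each separate from their neighbours. The lowest levels were those of SLC7A11 (6.94 ± 0.725 CPM per kb) and ASNS (6.84 ± 0.658 CPM per kb), whose ranges overlapped. Among 11928 tested protein-coding genes, the level per kb of SLC7A5 was at percentile 99.0, that of SLC1A5 at 98.8 and that of BCAT1 at 97.9, whereas ASNS and SLC7A11 were near the middle, at 52.1 and 52.5. In VENins lines the order was the same except that ASNS (7.47 CPM per kb) stood above SLC7A11 (6.08 CPM per kb). Dividing by the longest transcript instead of all exons placed SLC3A2 above BCAT1 with overlapping ranges, at 139.9 and 132.5 CPM per kb in VENsens lines, and ASNS above SLC7A11, at 12.9 and 6.94 CPM per kb. GOT2 then overlapped GLUD1, at 65.6 and 66.9 CPM per kb.

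**Figure D3:**
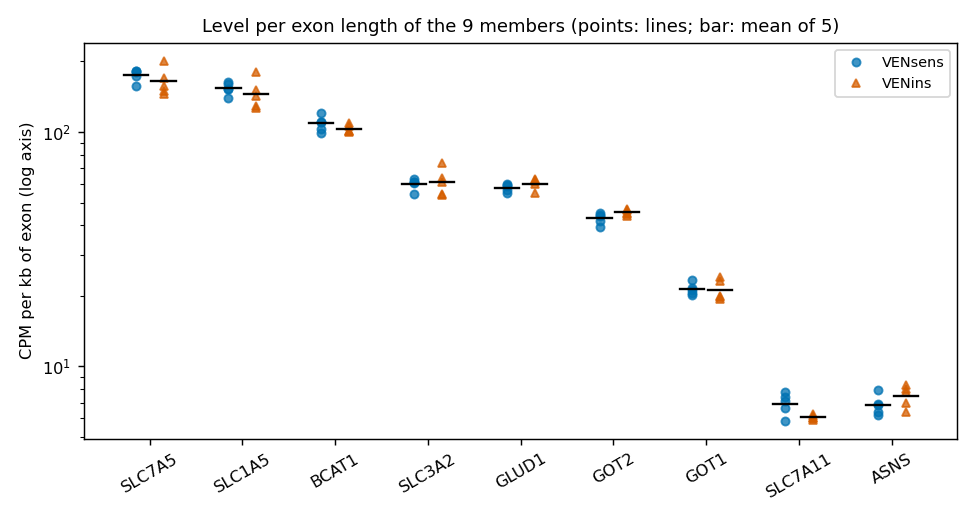
Level of each member in CPM per kilobase of exon on a log axis, with VENsens lines as circles, VENins lines as triangles and means of 5 lines as bars. The members span from 6.84 CPM per kb (ASNS) to 175 CPM per kb (SLC7A5) in VENsens lines, while VENsens and VENins points of 1 gene overlap.

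The members differed in how much they varied among lines of a condition. In VENins lines the coefficient of variation of CPM was 15% for SLC1A5, 13.8% for SLC7A5 and 13.1% for SLC3A2. The 500 tested genes nearest in level to each of them had medians of 5.62%, 5.60% and 5.92%, and counting error alone would give 0.942%, 0.741% and 1.16%. Much of this came from VENins line 5, since over VENins lines 1 to 4 the coefficients were 8.53%, 6.96% and 8.42%, beside medians of 4.16%, 4.29% and 4.26% for the genes nearest in level. In VENsens lines the coefficients of the 3 transport genes were 5.89%, 5.80% and 5.30%. SLC7A11 had the opposite pattern, with 10.5% in VENsens and 2.09% in VENins lines, the latter below the 2.69% that counting error alone would give. GOT2 (2.96%) and BCAT1 (4.08%) also varied less in VENins lines than in VENsens lines (5.69% and 7.49%), while GOT1 varied more (10.2% and 5.89%). The genes nearest in level to SLC7A11 had medians of 5.23% in VENsens and 6.29% in VENins lines. Whether these spreads differed between conditions was not tested. The coefficients were taken without removing trends on exon length and GC content.

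Several members moved together from line to line. SLC1A5 and SLC7A5 had a Pearson r of 0.984 and a Spearman rho of 0.988 in log2 CPM over 10 libraries, and r was 0.983 for deviations from the group means. SLC7A5 was the gene most like SLC1A5 among 11927 protein-coding genes, and SLC1A5 the one most like SLC7A5. SLC3A2 had an r of 0.881 with SLC1A5 and of 0.873 with SLC7A5 (n = 10), with lower rho values of 0.648 and 0.60, and an r of 0.962 and 0.966 for deviations from the group means. GOT1 had an r of 0.858 with SLC3A2, 0.805 with SLC7A5 and 0.748 with SLC1A5 (n = 10), and of 0.80, 0.707 and 0.621 without VENins line 5 (n = 9). The correlations rested partly on VENins line 5, without which r was 0.975 for SLC1A5 with SLC7A5 and 0.791 for SLC7A5 with SLC3A2 (n = 9). With the 2 libraries farthest from the median of the first-named gene left out, the same r values were 0.964 and 0.721 (n = 8).

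A separate pair was SLC7A11 with BCAT1, with an r of 0.884 and a rho of 0.952 over 10 libraries (r = 0.738 over 8, with the 2 farthest in SLC7A11 left out). Among 11927 protein-coding genes, BCAT1 had rank 61 in likeness to SLC7A11, and SLC7A11 had rank 132 in likeness to BCAT1. An r above 0.8 was reached by 3.09% of these genes with SLC7A11 and by 3.93% with BCAT1. ASNS had an r of -0.38 with SLC1A5, -0.34 with SLC7A5, -0.22 with SLC3A2 and 0.032 with BCAT1 (n = 10). Without VENins line 5, ASNS went against the 3 transport genes, with an r of -0.84, -0.77 and -0.81 (n = 9), and 0.16 with BCAT1. Over 10 libraries the lowest values were those of GLUD1, with an r of -0.64 with SLC1A5, -0.63 with SLC7A5 and -0.57 with SLC7A11, or -0.47, -0.45 and -0.86 without VENins line 5 (n = 9). With the 2 libraries farthest from the median of the transport gene left out, they were -0.39, -0.37 and -0.10 (n = 8). Of the 36 pairs of members, 6 had an r above 0.8, and the median r was -0.16, while without VENins line 5 these were 3 pairs and -0.12. For comparison, SLC1A5 had an r above 0.8 with 3.18% of protein-coding genes and SLC7A5 with 4.08%. After SLC7A5, the gene closest to SLC1A5 was SESN2 (r = 0.982), a leucine sensor of the mTORC1 pathway, and the closest to SLC3A2 were GPT2 (r = 0.960), the mitochondrial alanine aminotransferase, and UROS (r = 0.955). UBE3C (r = 0.973) and LPIN1 (r = 0.968) were closest to SLC7A11, and PICK1 (r = 0.943) and HMBOX1 (r = 0.921) to ASNS, each over 10 libraries. The closest to BCAT1 were TRIM33 (r = 0.984) and ANKRD17 (r = 0.982), and the closest to SLC7A5 after SLC1A5 was ZNF282 (r = 0.974). GLUD1 was closest to SET (r = 0.956) and PNPT1 (r = 0.944), GOT1 to CARD9 (r = 0.974) and VILL (r = 0.964), and GOT2 to MRPL22 (r = 0.942) and TBP (r = 0.940). These values describe libraries that share a parental line and a preparation, and they carry no test. They were taken on CPM after TMM, without removing trends on exon length and GC content. With those trends removed, the edgeR unadjusted p of the log2 fold change was 0.0241 in place of 0.145 for SLC1A5. It was 0.0527 in place of 0.129 for SLC7A5 and 0.224 in place of 0.686 for SLC3A2. How far the shared movement follows such trends was not tested.

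**Figure D4:**
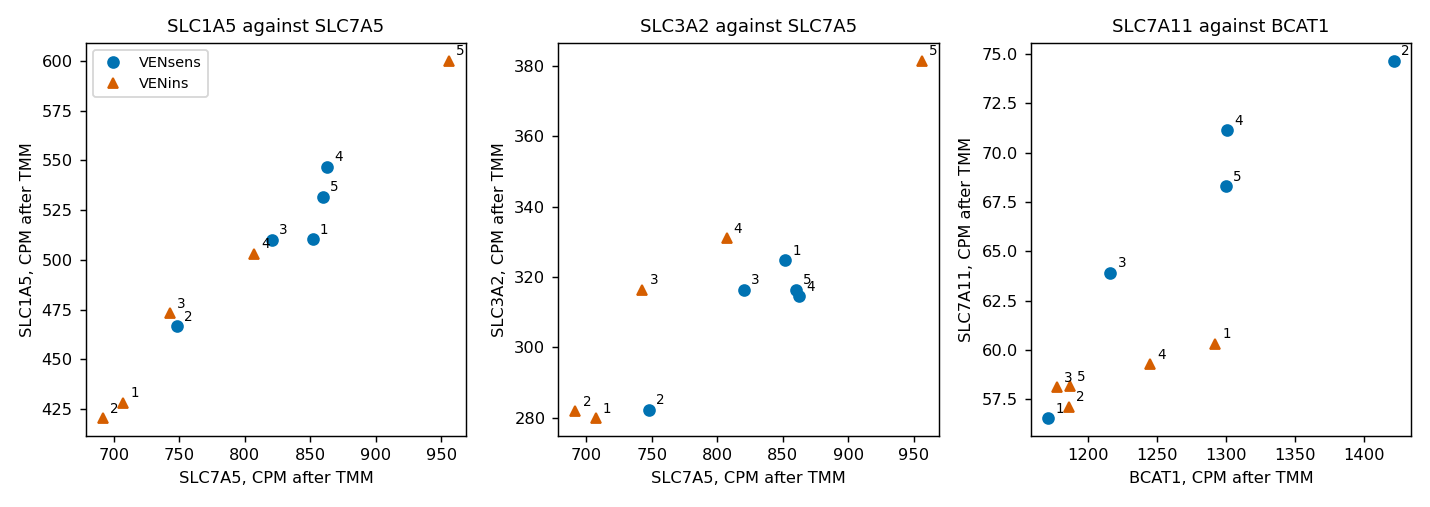
CPM after TMM scaling in the 10 lines for 3 pairs of members, with VENsens lines as circles, VENins lines as triangles and line numbers beside the points. SLC1A5 follows SLC7A5 across both conditions (r = 0.984), and SLC7A11 follows BCAT1 (r = 0.884). The ratio of SLC7A5 to SLC3A2 is lower in the VENins lines without overlap. Of 36 ratios between members 2 do not overlap, this one included, beside 4.74% of all gene pairs.

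The LAT1 light and heavy chain genes were also set against each other within each library, which needs no scaling between libraries. The ratio of SLC7A5 to SLC3A2, each per kb of exon, was 2.86, 2.89, 2.83, 2.99 and 2.97 in VENsens lines 1 to 5. It was 2.76, 2.68, 2.56, 2.66 and 2.73 in VENins lines 1 to 5. All 5 VENins ratios were below all 5 VENsens ratios, VENins line 5 included, with means of 2.91 ± 0.0686 and 2.68 ± 0.0763 (± SD of 5 lines). With the longest transcript as length the means were 1.31 and 1.20, so that the size of the ratio depends on the length used. This ratio was singled out after its values were seen. Of the 36 ratios between members, 2 did not overlap between conditions, the other being SLC7A11 to GOT2, and 4.74% of all gene pairs among 11432 protein-coding genes did not overlap, so that 2 of 36 is near the background.

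Promoters of the plasma membrane genes that moved together are shown beside that of ASNS, the amino acid response gene among the enzymes. Windows of 300 bases (250 before and 50 after a transcription start) were given by RefSeq on GRCh38.p14 for 8 of 9 members, with 17 windows in all, since some genes have several starts. Capitals mark matches to TGATGNAA, the core of the C/EBP-ATF response element through which ATF4 acts on amino acid shortage, or to CACGTG, the E-box bound by MYC and related factors. Both strands were searched.
SLC1A5 chr19:46788545-46788844, minus strand: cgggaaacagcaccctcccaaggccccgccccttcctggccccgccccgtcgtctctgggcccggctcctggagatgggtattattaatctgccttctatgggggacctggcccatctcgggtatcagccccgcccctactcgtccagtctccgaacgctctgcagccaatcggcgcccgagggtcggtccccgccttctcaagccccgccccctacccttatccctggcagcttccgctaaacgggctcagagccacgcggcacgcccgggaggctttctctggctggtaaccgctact
SLC7A5 chr16:87869458-87869757, minus strand: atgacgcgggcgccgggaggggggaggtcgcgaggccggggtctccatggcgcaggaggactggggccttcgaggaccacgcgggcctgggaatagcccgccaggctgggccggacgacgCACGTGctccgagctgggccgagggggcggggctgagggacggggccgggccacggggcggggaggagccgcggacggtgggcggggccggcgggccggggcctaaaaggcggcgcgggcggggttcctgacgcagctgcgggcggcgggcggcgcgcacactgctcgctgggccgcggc
SLC3A2 chr11:62881449-62881748, plus strand: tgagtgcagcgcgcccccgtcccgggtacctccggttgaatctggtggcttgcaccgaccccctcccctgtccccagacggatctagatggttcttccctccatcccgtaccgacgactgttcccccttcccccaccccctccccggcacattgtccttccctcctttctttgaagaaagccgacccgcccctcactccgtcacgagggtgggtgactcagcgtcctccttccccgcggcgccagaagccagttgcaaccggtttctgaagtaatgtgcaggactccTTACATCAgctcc
ASNS chr7:97872359-97872658, minus strand: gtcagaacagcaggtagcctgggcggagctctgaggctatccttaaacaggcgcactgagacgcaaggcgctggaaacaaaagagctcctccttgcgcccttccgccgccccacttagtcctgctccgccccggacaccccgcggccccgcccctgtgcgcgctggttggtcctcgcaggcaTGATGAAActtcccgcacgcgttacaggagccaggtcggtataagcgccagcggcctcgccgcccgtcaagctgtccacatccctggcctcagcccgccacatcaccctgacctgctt

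The ASNS window held TGATGNAA 68 bases before the start, on the strand of the gene. The SLC3A2 window shown held it on the opposite strand, 37 bases after the start, and the SLC7A5 window held CACGTG 130 bases before the start. The SLC1A5 window shown had neither, while its other windows had 1 match each. The windows of SLC3A2 and ASNS that are not shown had neither motif. Over all 17 windows, TGATGNAA was found in 5 windows of 5 members (ASNS, BCAT1, GOT1, SLC1A5 and SLC3A2) and CACGTG in 3 windows of 3 members (BCAT1, SLC1A5 and SLC7A5), with no match of one overlapping the other. Of 35116 promoter windows of the same length, 3.62% held TGATGNAA and 7.26% held CACGTG. A match describes these letters and nothing about binding. The windows shown were 1 of 3 for SLC1A5, 1 of 3 for SLC3A2 and 1 of 2 for ASNS. Over all windows of the transport genes, SLC1A5 and SLC3A2 had TGATGNAA, and SLC1A5 and SLC7A5 had CACGTG. Whether the motifs bear on the shared movement was not tested.

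Related genes were examined in 9 lists chosen by function, with 143 of 144 listed genes matched and 122 tested. None of the 122 had an adjusted p under 0.05 in edgeR, beside 0.197% of all tested genes, and DESeq2 with the line number called 2, PPM1K and SLC7A1. DESeq2 without the line number called 5, these and LAMTOR5, SESN1 and FNIP1, the last named here for that call. These 2 and 5 of 122 (1.64% and 4.10%) stand beside 1.3% and 4.41% of all tested genes in the same DESeq2 fits. At an unadjusted p under 0.05, 23 of 122 were past the threshold, 9 higher and 14 lower in VENins lines, against 16.2% of all tested genes. The median log2 fold change was 0.0031, beside 0.0035 over all tested genes, of which 51.1% had a positive and 48.9% a negative value. VENins and VENsens ranges did not overlap for 4 of 122 genes, against 4.66% of tested genes.

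Other plasma membrane amino acid transporters were the list with the lowest median. Of 27 genes, 14 were tested, and all 14 had a negative log2 fold change, as did 48.9% of all tested genes, with a median of -0.11. All 14 were also negative with RLE size factors, with library size alone and in DESeq2. With trends on exon length and GC content taken out, 12 of 14 were negative (median -0.081), and without line pair 1 it was 11 of 14 (median -0.059). SLC7A1, the main carrier of arginine and lysine, was measured at 321, 343, 309, 332 and 339.9 CPM in VENsens lines and at 293, 267, 281, 299 and 303 CPM in VENins lines. All VENins lines lay below all VENsens lines for SLC7A1, and its log2 fold change was -0.19 (95% CI -0.30 to -0.078, edgeR adjusted p = 0.115). SLC16A10, a carrier of aromatic amino acids at 4.60 CPM in VENsens lines, had a log2 fold change of -0.39 (edgeR adjusted p = 0.175). SLC38A2, a sodium-coupled neutral amino acid carrier and the most abundant gene of the list per kb (72.1 CPM per kb in VENsens lines), had one of -0.15 (edgeR adjusted p = 0.220).

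In branched-chain amino acid breakdown, the pathway that BCAT1 opens, 25 of 25 genes were tested and 13 were higher in VENins lines (median 0.00079), but 9 of 25 without line pair 2 (median -0.018). PPM1K, the phosphatase that activates the branched-chain ketoacid dehydrogenase, came closest to a call among all related genes. It had 136, 160.2, 147, 144 and 148 CPM in VENsens lines and 122, 117, 115, 130.3 and 102 CPM in VENins lines. Every VENins line was below every VENsens line for PPM1K, with a log2 fold change of -0.33 (95% CI -0.47 to -0.19, edgeR adjusted p = 0.0552). Its adjusted p was under 0.05 in 8 of 14 alternatives and reached 0.429 in another, with a log2 fold change between -0.38 and -0.27 in all of them. HIBCH, which acts in valine breakdown, had a log2 fold change of 0.22 (edgeR adjusted p = 0.212), and ECHS1 was the most abundant gene of the list per kb (71.7 CPM per kb).

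Among regulators and targets of the amino acid response, 9 of 13 tested genes were higher in VENins lines, with a median log2 fold change of 0.090, which was 0.15 without line pair 1 and 0.042 without line pair 2. ATF4, the transcription factor at the centre of the response, had the highest level per kb of the list (387 CPM per kb in VENsens lines) and a log2 fold change of 0.094 (95% CI -0.029 to 0.22, edgeR adjusted p = 0.442). Over the 14 alternatives its log2 fold change was between 0.049 and 0.145. EIF2AK4, the kinase GCN2 that senses uncharged tRNA, had one of -0.22 (edgeR adjusted p = 0.168), and DDIT3, which encodes CHOP, one of 0.19 (edgeR adjusted p = 0.190). In lysosomal export and mTORC1 amino acid sensing, 18 of 29 tested genes were higher (median 0.018), but 13 of 29 without line pair 2 (median -0.0068). LAMTOR5, a Ragulator subunit, had a log2 fold change of 0.20 (edgeR adjusted p = 0.126) and SESN1, a sestrin, one of 0.32 (edgeR adjusted p = 0.129). The Rag GTPase gene RRAGA had the highest level per kb in VENsens lines (43.65 CPM per kb), with LAMTOR4 next at 43.63 CPM per kb. In VENins lines LAMTOR4 was above RRAGA, at 45.3 and 44.9 CPM per kb.

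Enzymes that use or make glutamine were divided, with 5 of 11 tested genes higher in VENins lines and a median log2 fold change of -0.013, or 3 of 11 without line pair 3. With trends on exon length and GC content taken out it was 6 of 11, with a median of 0.043. PFAS, of purine synthesis, had a log2 fold change of -0.12 and CTPS1, which makes CTP, one of 0.11, with edgeR adjusted p-values of 0.299 and 0.317. With those trends taken out the log2 fold changes were -0.077 for PFAS and 0.17 for CTPS1. The CTPS1 ranges did not overlap, with 134 to 145 CPM in the VENsens group and 146 to 156 CPM in the VENins group. GLUL, glutamine synthetase, was the most abundant of the list per kb (43.9 CPM per kb) and had a log2 fold change of -0.013 (95% CI -0.12 to 0.094), or 0.043 with those trends taken out. The last of the 4 related genes without overlap was SLC38A7, a lysosomal glutamine exporter named here after its values were seen, with 7.90 to 9.49 CPM in the VENsens group and 7.44 to 7.82 CPM in the VENins group.

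In the list of glutamate and proline enzymes, 5 of 8 tested genes were higher in VENins lines, with log2 fold changes of 0.13 for ALDH4A1 (edgeR adjusted p = 0.527) and 0.082 for PSAT1 (edgeR adjusted p = 0.464), the most abundant per kb (136 CPM per kb in VENsens lines). The 14 alternatives gave between 0.063 and 0.173 for ALDH4A1 and between 0.048 and 0.122 for PSAT1. For asparagine and aspartate enzymes 2 of 6 were higher (median log2 fold change -0.042), but 4 of 6 without line pair 1 (median 0.024) and 1 of 6 without line pair 4. ASL, argininosuccinate lyase, had a log2 fold change of -0.31 (edgeR adjusted p = 0.150) and ADSS2, of AMP synthesis, one of -0.072, while ASS1 was the most abundant per kb (94.1 CPM per kb). All 6 tested genes of the malate-aspartate shuttle and mitochondrial glutamate carriers had positive log2 fold changes, between 0.019 and 0.13. The members GOT1 and GOT2 are not in this list. Its median was 0.043, but 0.026 without line pair 2 and 0.069 without line pair 3. Without line pair 2 or 5, 5 of 6 were positive. The aspartate-glutamate carrier gene SLC25A12 had a log2 fold change of 0.13 (edgeR adjusted p = 0.351) and the 2-oxoglutarate carrier gene SLC25A11 one of 0.12 (edgeR adjusted p = 0.374). MDH2 was the most abundant per kb (100.6 CPM per kb). Of genes for cystine and glutathione use, the fate of what SLC7A11 brings in, 7 of 11 tested were higher, with log2 fold changes of 0.20 for CHAC2 (edgeR adjusted p = 0.280) and 0.13 for GPX4 (edgeR adjusted p = 0.428), the most abundant per kb at 37.4 CPM per kb. Over the 14 alternatives the log2 fold change of GPX4 was between 0.057 and 0.209.

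**Figure D5:**
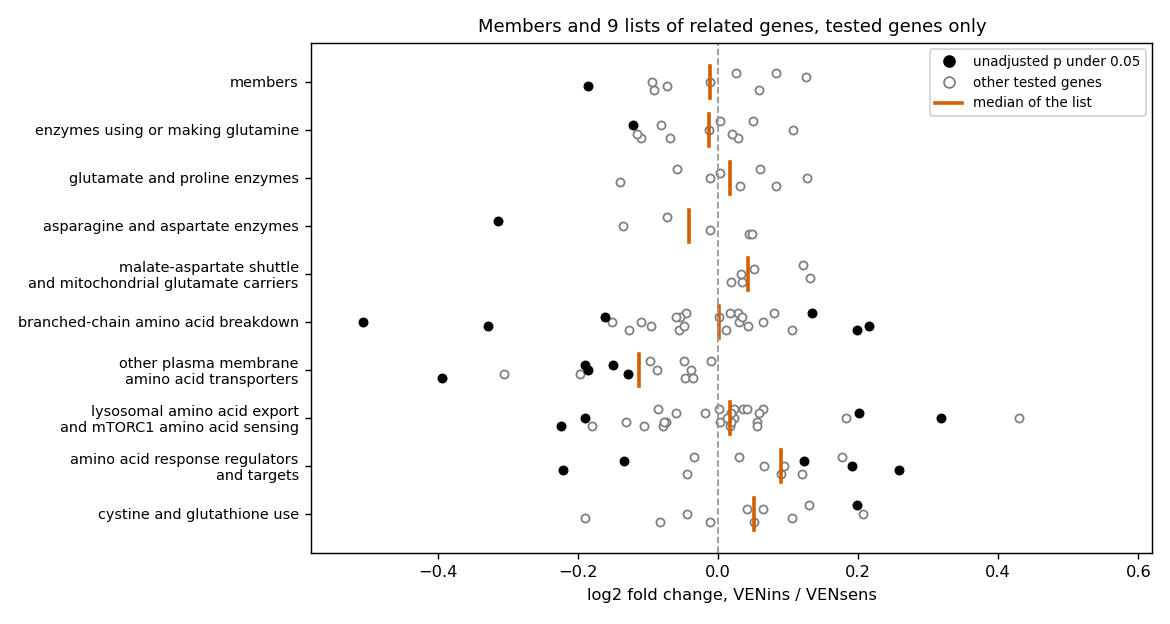
Log2 fold changes of VENins over VENsens lines for the tested genes among the members and in 9 lists of related genes (points), with filled points for an unadjusted edgeR p under 0.05 and a bar at the median of each list. All points of the other plasma membrane transporters lie below 0 (median -0.11, or 12 of 14 after the length and GC correction), and SLC7A11 is the 1 filled point among the members.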

How the data were processed

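Gene counts of 10 RS4;11 RNA-Seq libraries, made from 200 ng of total RNA, were deposited by the authors as raw counts per Ensembl gene, without normalization. The submitters' processing notes name bcl2fastq 2.20.0.422, Bowtie2 2.3.5.1, SAMtools 1.9 and HTSeq 0.9.1 and the build hg19; their settings and strand mode are not given in the sources used here. Gene names and exon lengths were taken by identifier from GENCODE 29 (GRCh38), which named 52526 of 63677 identifiers; the others held 0.907% of gene counts. Between 24.6% and 26.2% of reads were of low alignment quality and are not in the gene counts, which can lower genes with near-identical copies. CASTOR2 was the only listed symbol not matched. A list gene and a marker gene are not reported here and were left out of the lists and sums.

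Counts were filtered with filterByExpr (minimum count 10, minimum total 15), scaled by TMM and tested in edgeR 4.0.16 (R 4.3.3) by quasi-likelihood F tests. The model held condition and line number, the latter because the study's methods describe a paired analysis. Adjusted p is that of Benjamini and Hochberg for the whole set of tested genes, and a gene was called under 0.05. Intervals are 95% intervals from the F statistic and cover the spread between lines. Log2 CPM used a prior count of 2. Plots used matplotlib 3.10.9 in Python 3.11.15. DESeq2 1.42.0, other scalings and filters, counts of copies, length and GC trends, and each line pair left out were the alternatives.

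Members and lists were chosen with earlier results of these data known. The genes named are all members, and of each list any gene called in the edgeR fit, the 2 with the smallest p and the most abundant per kb. For likeness they are the 2 protein-coding genes with the highest r. Other list genes named were called in an alternative (FNIP1, ATF5 and CEBPB) or had no overlap (SLC38A7). LAMTOR4 was named for its level and GLUD2 as a copy of GLUD1.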

Additional observations from a re-analysis of the deposited data

Results flagged for a closer look

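Of 18 sets of 5 values (9 members in 2 conditions) 1 had a library far from the others, measured as its gap to the nearest line over the whole range of the set. SLC3A2 in VENsens line 2 was at 282 CPM, while the 4 other VENsens lines were between 315 and 325 CPM, a ratio of 0.761 beside a critical value of 0.71. Chance gives such a value in about 1 of 20 sets. The same library was also the lowest VENsens line for SLC1A5, SLC7A5, GLUD1, GOT1 and GOT2, and the highest for SLC7A11, ASNS and BCAT1.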

How the results depend on the processing

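Under the 14 alternatives, 0 members had an adjusted p under 0.05 each time, and 7 of 9 kept the direction of their log2 fold change. Those that turned were GOT1 (0.047 without line pair 1 and 0.013 without line pair 3) and SLC3A2 (-0.035 without line pair 5); with 1 line pair left out GOT1 was between -0.061 and 0.047 and SLC3A2 between -0.035 and 0.086. The count of all genes called changed from 33 to 149 with no replicate block, 217 and 739 in DESeq2 with and without the block, 664 with no filter on low counts and 156 with length and GC trends taken out. It was between 6 and 331 with 1 line pair left out. Related genes called changed from 0 to 1 with no block (0.820%, beside 0.889% of all tested genes), 2 in DESeq2 with the block (1.64% beside 1.3%) and between 0 and 2 with 1 line pair left out (1.64% beside 0.340% without pair 1 and 1.97% without pair 4). In alternatives chosen for them after seeing the data, they were 5 in DESeq2 with no block (4.10% beside 4.41%), 5 with no filter (PPM1K, SLC7A1, SESN1, ATF5 and CEBPB; 4.10% beside 2.02%), and 1 each with library size alone (0.820% beside 0.263%) and with length and GC trends taken out (0.820% beside 0.956%). Members without overlap numbered between 0 and 1 with 1 line pair left out, beside 6.42% to 10.5% of all tested genes. The cause of these changes was not tested.

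Samples of the same number shared only that number: the correlation of their deviations from the group means was between -0.10 and 0.028 over the 5 pairs, and no VENins line correlated best with the VENsens line of its number. The block changed no member's call.

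Adding the counts of named copies, other scalings and a filter of 10 counts in every library changed no direction, but with copies added the log2 fold change of GLUD1 was 0.022 in place of 0.059. That of BCAT1 was -0.016 with length and GC trends taken out, in place of -0.072. Counting error was at most 3.70% for any member, and for SLC7A11 in VENins lines it was above the measured spread.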
